A study of Macaca mulatta with 304 samples.

Results

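HDAC11 encodes the only class IV member of the zinc-dependent histone deacetylases, and it was followed here as 1 gene of the 21070 in the deposited count table, of which 13751 passed a filter on low counts and were tested. The gene was chosen by its measured rise against the control over Day 3 to Day 21 after irradiation, so its values against the control are given as a description and carry no test. The row of the table that bears its symbol was used in all samples, and HDAC11 held between 29 and 5963 counts in a sample.

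Zinc-dependent deacetylases remove acetyl groups from lysines, whereas sirtuins do so with NAD as a cosubstrate. HDAC11 is a small enzyme that removes long fatty acyl groups from lysine far better than acetyl groups, and the serine hydroxymethyltransferase SHMT2 is a known substrate whose deacylation controls the type I interferon receptor IFNAR1. In antigen-presenting cells HDAC11 is known as a repressor of IL10, the gene of an anti-inflammatory cytokine.

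The samples were whole blood RNA from 28 healthy adult rhesus macaques of the Chinese sub-strain that received X-rays to the thorax, 12 animals at 9.8 Gy (6 males and 6 females) and 16 animals at 10.7 Gy (8 males and 8 females). A draw on Day -2 served as the control in 24 animals, and 280 draws followed between Day 3 and Day 270, 151 of them at 9.8 Gy and 129 at 10.7 Gy. No unirradiated animals were bled over the same months, and all animals received an analgesic, with dexamethasone where breathing was rapid. Irradiation, repeated bleeding, drugs and time therefore cannot be told apart in any comparison with the control. The animals still present at the late draws were those not yet euthanized, and from Day 180 to Day 270 they were 5 animals at 9.8 Gy and 1 at 10.7 Gy.

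The lowest sample held 2840219 counted reads, the median sample 8227563 and the highest 23638161. Levels are given in counts scaled to library size (CPM) after upper quartile scaling, which matches the samples at a high-ranking gene, so CPM need not add up to the same total in each sample. Names of the libraries carried a low number, a high number or no number, and 20 of the 24 controls but none of the samples from Day 30 onward had a low number, so that library group and time overlap. What the numbers mean is not given in the sources used here.

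On the rhesus assembly Mmul_10, HDAC11 lies on the plus strand at chr2:144875316-144903615, a span of 28300 bases with 3823 exon bases over 12 annotated transcripts and 7 transcript starts. An unnamed antisense lncRNA overlaps its first 157 bases and is not among the genes counted. The kit marked strand, but whether strand was used in counting is not given in the sources used here. The sequence before the start that most transcripts share is shown because HDAC11 moved with a set of other genes. It runs from chr2:144876055 to chr2:144876211 on the plus strand, is taken from the Mmul_10 assembly, lies outside every annotated exon, and comes before the start shared by 4 of the 12 transcripts. Capitals mark a GC box (GGGCGG) together with an overlapping match on the other strand to the letters CCNCNCCC of a CACCC box, the kind of site that Sp and KLF factors bind.

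HDAC11 upstream: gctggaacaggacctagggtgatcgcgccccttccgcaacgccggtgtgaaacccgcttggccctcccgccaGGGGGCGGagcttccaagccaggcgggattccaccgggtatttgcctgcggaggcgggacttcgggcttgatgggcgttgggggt

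Over the 250 bases before that start, searched on both strands, GGGCGG occurred 4 times and CCNCNCCC 3 times, and 52.3% and 60.3% of 13655 genes held these letters in the same window. The window lies within the HDAC11 span, after the start of other transcripts. Its printed part ends where another transcript starts, at chr2:144876212. The GC boxes that begin at bases 169, 200 and 224 of the window lie past that point and are not printed. No GATA motif occurred, with AGATAA searched first, then the variant that opens with T (TGATAA), then both with G at the end (AGATAG as well as TGATAG). Of all genes 17.4% held at least 1 of these. The E-box letters CANNTG did not occur either, and 57.03% of genes held them. The window was 71.2% G or C, against a median of 60.4%, and held 25 CG pairs, against a median of 16. A match of letters is not a binding site, and an absent match says only that those letters are not in this window.

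HDAC11 rose in the first month, fell back by Day 40 and was high again in the few animals followed to Day 210 and later. Its median level was 23.01 CPM in the 24 controls, which ranged from 3.85 to 82.1 CPM. On Day 3 the 24 samples ranged from 11.95 to 158 CPM with a median of 43.5 CPM. On Day 15 they ranged from 51.1 to 618 CPM with a median of 168 CPM. Both days overlapped with the controls. The medians were 80.6 CPM on Day 6, 70.4 CPM on Day 9, 111.3 CPM on Day 21 and 98.3 CPM on Day 30. From Day 40 to Day 120 the medians lay between 13.8 CPM on Day 90 and 29.7 CPM on Day 40. They were 57.96 CPM on Day 150 (n = 9), 60.1 CPM on Day 180, 105.6 CPM on Day 210, 148 CPM on Day 240 and 107.1 CPM on Day 270 (n = 6 each).

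**Figure D1:**
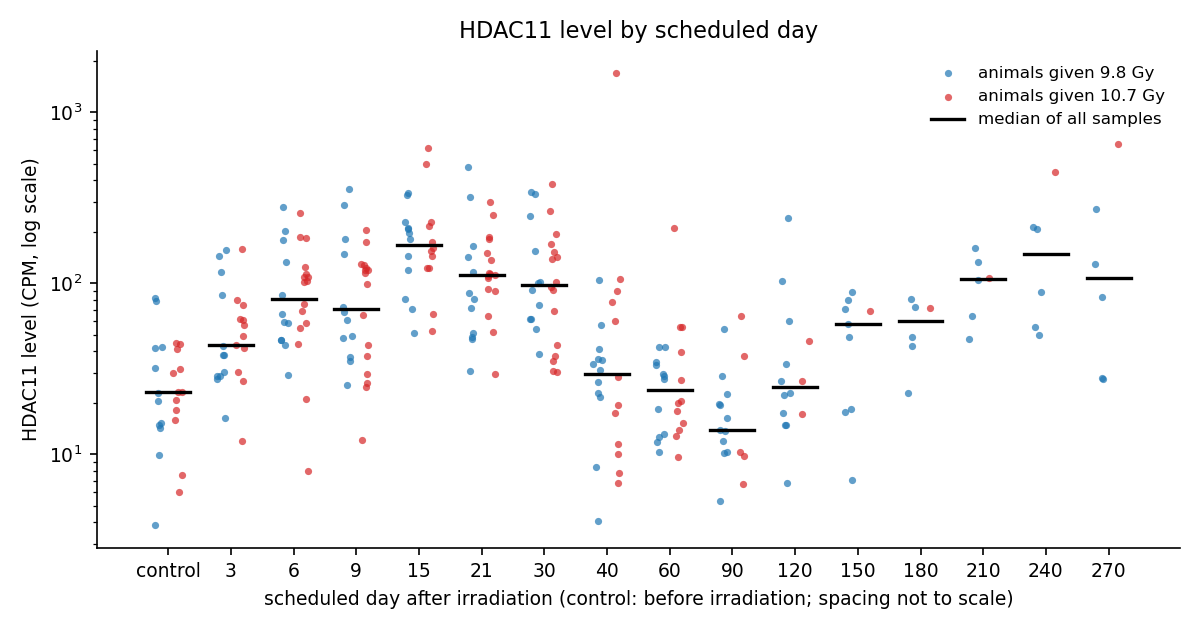
HDAC11 level in CPM (log axis) by scheduled day for animals given 9.8 Gy (blue) and 10.7 Gy (red), 1 point a sample, with a black line at the median of all samples. The median climbs from 23.01 CPM in controls to 168 CPM on Day 15, falls to 13.8 CPM on Day 90 and reaches 148 CPM on Day 240, and a single 10.7 Gy sample on Day 40 stands at 1691 CPM.

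Against each animal's own control, the mean log2 change was 1.11 ± 0.84 on Day 3 (SD, n = 24), with 21 of 24 animals higher. The Day 15 mean was 2.84 ± 1.19, a fold of 7.15, with every one of the 24 animals higher and single values from 1.21 to 6.00. All 24 animals were also higher at Days 6, 21 and 30, with means of 1.68, 2.18 and 2.09. The Day 9 mean was 1.61, and 21 of 24 were higher. The mean was 0.47 ± 1.88 on Day 40, when 12 of 24 animals were higher, and 0.14 ± 0.98 without animal B2007. It was 0.00 ± 0.89 on Day 60 (n = 21, 8 higher) and -0.53 ± 1.33 on Day 90 (n = 15, 6 higher). All 6 animals with later draws were above their controls on Days 180, 210, 240 and 270, with means of 0.96, 1.82, 2.28 and 2.0. The highest draw up to Day 30 was on Day 15 in 12 of 24 animals and on Day 30 in 7.

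**Figure D2:**
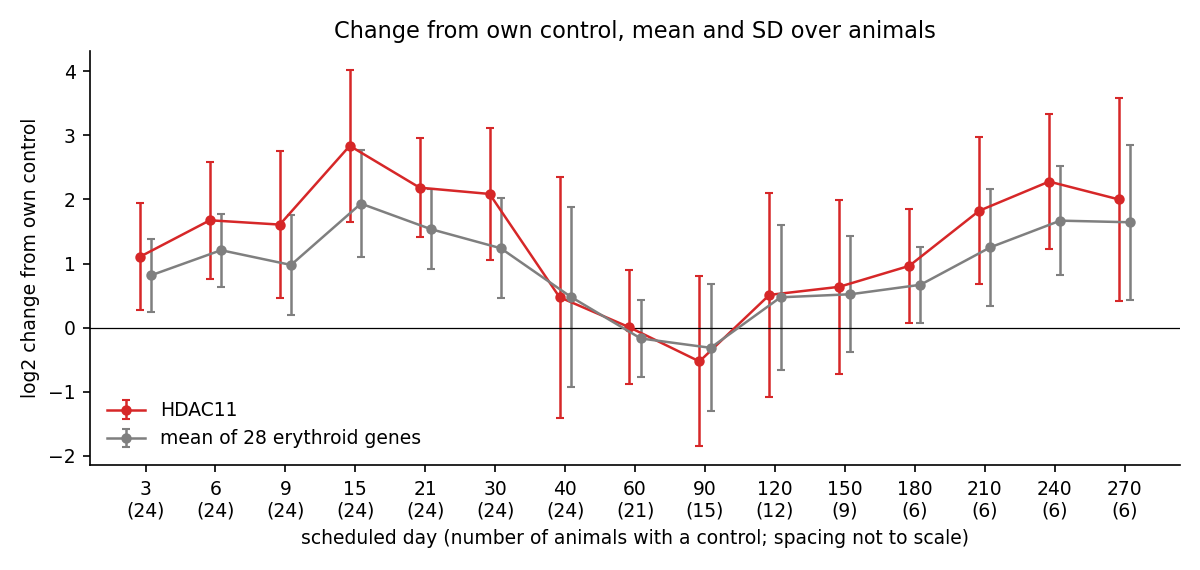
Mean log2 change from each animal's own control by scheduled day for HDAC11 (red) and for the mean of 28 erythroid genes (grey), with bars for the SD over animals and their number in brackets. Both curves peak on Day 15, at 2.84 and 1.94, lie near 0 on Day 60 and are high again on Day 240, at 2.28 and 1.67.

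Steps between neighbouring scheduled days ask when the level moved, and they were tested with edgeR's quasi-likelihood test on counts, blocked by animal, and p was adjusted over all 13751 genes by the Benjamini-Hochberg method. Calls needed a fold of 1.5 or more and an adjusted p no higher than 0.05. The levels of Day 3 to Day 21 led to the choice of the gene. Every step that uses 1 of those days, up to Day 30 against Day 21, is therefore a description with no p. Of the steps from Day 30 on, HDAC11 was called in 2.

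From Day 3 to Day 6 the fitted log2 change of HDAC11 was 0.60 (SE 0.15), and 20 of 24 animals were higher. Of all genes 2.39% were called in that step. From Day 6 to Day 9 the change was -0.09 (SE 0.12), where 4.6% of genes were called. From Day 9 to Day 15 it was 1.17 (SE 0.23), with 22 of 24 animals higher, where 2.86% of genes were called. Its value was the highest of the 14 steps. From Day 15 to Day 21 it was -0.65 (SE 0.16), with 21 of 24 animals lower, where 1.04% of genes were called. From Day 21 to Day 30 it was -0.10 (SE 0.16), where 7.09% of genes were called.

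The largest step of all 14 was from Day 30 to Day 40, when HDAC11 fell by 1.71 (SE 0.30, edgeR adjusted p = 0.000133, lower in 22 of 24 animals), in a comparison that called 4.96% of genes. The median of these 24 animals went from 93.8 to 29.7 CPM. One of the 2 animals that were higher was B2007, a 10.7 Gy male. Its HDAC11 level was 5.99 CPM in the control, 102 CPM on Day 30 and 1691 CPM on Day 40, its last draw, with 5679 counts. The scaling factor of that library was 0.379, and without scaling the level was 640.0 CPM. Its 28 erythroid genes added up to 382652 CPM with scaling, the highest of all samples, and ALAS2 alone made up 287033 CPM of that sum. Without this animal HDAC11 fell by 1.85 (SE 0.22, edgeR adjusted p = 7.81e-07). Without the animal block the change was -0.26 and did not pass (edgeR adjusted p = 0.774).

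HDAC11 did not pass from Day 40 to Day 60 (-0.14, SE 0.19, edgeR adjusted p = 0.654), where 2.66% of genes were called. From Day 60 to Day 90 it was -0.53 (SE 0.21, edgeR adjusted p = 0.213), where 0.32% of genes were called. From Day 90 to Day 120 it was 0.61 (SE 0.32, edgeR adjusted p = 0.146), where 15.5% of genes were called. HDAC11 was called in none of these steps. Between Day 180 and Day 210 HDAC11 rose by 0.86 (SE 0.23, edgeR adjusted p = 0.0371, higher in 5 of 6 animals), where 8% of genes were called. That call was lost without B1003, B1004, B1503, B1505 or B2502 and kept without B1502, with edgeR adjusted p from 0.0141 to 0.0965 over the 6 fits. From Day 210 to Day 240 the change was 0.46 (SE 0.32, edgeR adjusted p = 0.342), where 12.8% of genes were called. It was 0.14 without B2502 and 0.76 without B1004.

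In 3 late steps edgeR called 0% of genes. HDAC11 changed by -0.05 (SE 0.41) from Day 120 to Day 150, by -0.08 (SE 0.30) from Day 150 to Day 180 and by -0.27 (SE 0.26) from Day 240 to Day 270. In the same order, 767, 1298 and 1187 genes had an unadjusted p of at most 0.05, DESeq2 called 7, 2 and 35, and limma on the deposited values called 0 in each.

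Single animals took different courses in the late months. Animal B1503, a 9.8 Gy female, went from 42.8 CPM on Day 180 to 160 CPM on Day 210, 206.95 CPM on Day 240 and 271 CPM on Day 270. Animal B2502, a 10.7 Gy female and the only one of that dose left, went from 71.4 to 106.99, 448 and 652 CPM over the same days. Without scaling, Day 270 was at 168 CPM in B1503 and at 396 CPM in B2502, with scaling factors of 0.621 and 0.608. Both rose at every draw, whereas B1505, a 9.8 Gy female, went from 22.7 to 64.1, 55.6 and 27.7 CPM. With scaling, the erythroid genes of B2502 added up to 15061 CPM on Day 180 and 123124 CPM on Day 270. The scaling factor was 1.04 on Day 180 and 0.608 on Day 270, so that rise is larger with scaling than without. Which value is nearer to the level in blood was not tested.

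The question of dose was whether 10.7 Gy and 9.8 Gy differed. The change of HDAC11 over Day 3 to Day 21, on counts summed per animal, was 0.06 higher at 10.7 Gy on the log2 scale (SE 0.31, edgeR adjusted p = 0.988, 24 animals). On Day 30 the level at 10.7 Gy was -0.18 from that at 9.8 Gy (SE 0.38, edgeR adjusted p = 0.895, 28 animals). The samples ranged from 30.2 to 381 CPM at 10.7 Gy and from 38.5 to 341 CPM at 9.8 Gy. On Day 60 the difference was 0.55 (SE 0.43, edgeR adjusted p = 0.343, 24 animals), where 18% of genes were called. The samples then ranged from 9.69 to 211 CPM at 10.7 Gy and from 10.3 to 42.4 CPM at 9.8 Gy. Their medians went the other way, at 20.3 CPM for 10.7 Gy and 28.1 CPM for 9.8 Gy. With limma on the deposited values the Day 60 difference was 0.25. HDAC11 was called in none of these comparisons of dose. For the change over Day 3 to Day 21 and for Day 30, edgeR called 0% of genes, with 761 and 1354 genes at an unadjusted p of at most 0.05. DESeq2 called 0 in both and limma called 1 and 0.

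Sex was compared in the same way. Females were 0.06 above males in the controls (SE 0.39, edgeR adjusted p = 1), where 0.0654% of genes were called. On Day 30 they were 0.42 above (SE 0.38, edgeR adjusted p = 0.495), where 0.524% of genes were called. The change over Day 3 to Day 21 was 0.12 higher in females (SE 0.31, edgeR adjusted p = 1), where edgeR called 0% of genes, 0.894% of genes had an unadjusted p of at most 0.05 and DESeq2 and limma called 0. HDAC11 was not called in any comparison between the sexes.

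Across all samples the genes whose log2 CPM followed HDAC11 most closely included DMTN and ALAS2, 2 genes of red cells, and 6 of the 50 highest were on a list of 28 erythroid markers. The 12 with the highest Pearson r were BCL2L1 (0.91), which protects late erythroblasts from cell death, DMTN (0.90), a protein of the red cell skeleton, FBXO7 (0.89), FKBP8 (0.89), the cell cycle factor E2F2 (0.89), the poly(A) polymerase TENT5C (0.88), ALAS2 (0.88), the first enzyme of haem synthesis in red cells, TNS1 (0.88), KANK2 (0.88), the deubiquitinase JOSD2 (0.88), the transcription factor NFIX (0.87) and PAQR9 (0.87). The lowest were PLEKHA2 (-0.50), the small GTPase gene RAB14 (-0.50), the elongin subunit gene ELOA (-0.48), TMEM248 (-0.45), ANKRD44 (-0.44) and the ubiquitin ligase gene RNF41 (-0.44). The median r over all other tested genes was -0.05. These values describe samples that share animals and libraries, so they carry no p.

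The 12 genes were picked over all samples, so their r in subsets of these samples is a description. With each animal's mean subtracted, the median r of the 12 genes went from 0.88 to 0.95, and within each of 26 animals with at least 6 draws it was between 0.90 and 0.99. In the 24 controls alone the median was 0.78, and in the 28 samples of Day 30 alone it was 0.81. The 5 genes with the highest r on Day 30 were ALAD (0.88), an enzyme of haem synthesis, FOXO4 (0.87), DMTN (0.85), JOSD2 (0.84) and E2F2 (0.83). Of the 50 genes with the highest r over all samples, 28 were among the 50 highest in the controls and 22 among the 50 highest on Day 30.

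All 28 genes of a list of erythroid markers were measured, and r with HDAC11 over all samples ran from 0.32 to 0.90 with a median of 0.71. DMTN, ALAS2 and TRIM58 (0.87) were highest, and the mitochondrial iron importer gene SLC25A37 (0.32) and HBB (0.52) were among the lowest. HBB ran from 2.02 to 9147.76 CPM over all samples, and the reason for its lower r was not tested. The medians of the other lists lay between -0.13 for the subunits of deacetylase complexes and 0.33 for cycling cell genes. The summed level of the erythroid list ranged from 2724 to 18539.7 CPM in the controls, from 5412.5 to 111652 CPM over Day 3 to Day 21, from 2774 to 382652 CPM over Day 30 to Day 90 and from 3840 to 123124 CPM later. Of its members, ADD2 was at 0 in the lowest sample, and ALAS2 was at 861 CPM or more in all samples. In whole blood, more cells of a type and more RNA per cell cannot be told apart, and the part of red cell precursors in the course of HDAC11 was not tested.

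**Figure D3:**
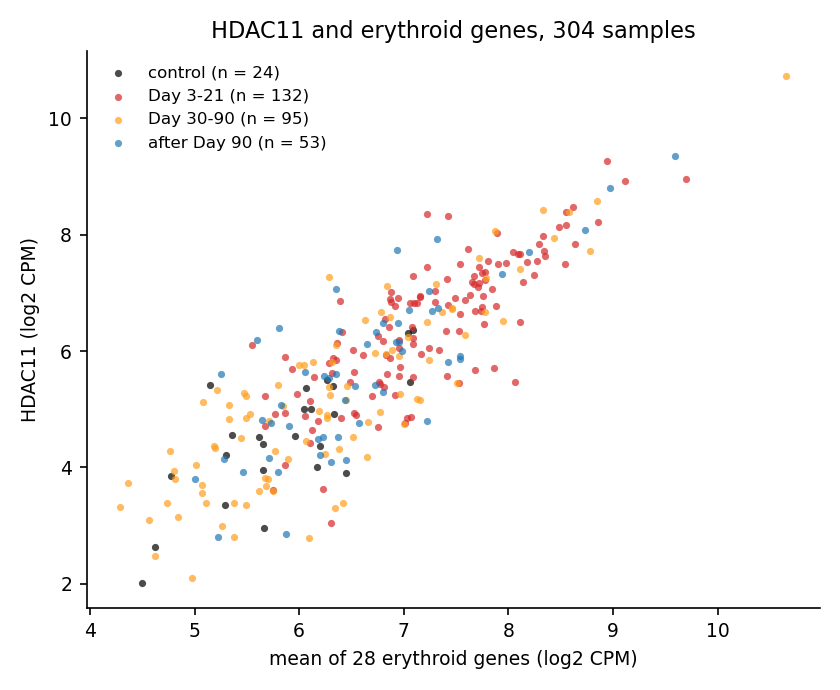
HDAC11 log2 CPM against the mean log2 CPM of 28 erythroid genes in all samples, 1 point a sample, coloured by period. The points of all 4 periods lie along 1 rising band (r = 0.86), and the sample of B2007 on Day 40 is its upper end.

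The change of HDAC11 was set beside that of the erythroid mean. Its level over Day 3 to Day 21 chose the gene, so a larger rise than that of the list is a description and supports nothing. Over Day 3 to Day 21 the mean log2 change from control was 1.88 ± 0.74 for HDAC11 and 1.29 ± 0.53 for the mean of the 28 erythroid genes (SD, n = 24). Their difference was 0.59 ± 0.29 and was above 0 in all 24 animals. The Day 15 difference was 0.90 ± 0.40 and that of Day 30 was 0.85 ± 0.32, again above 0 in all 24, and that of Day 40 was -0.01 ± 0.57 (11 of 24 above 0). Between Day 30 and Day 40 the mean change was -1.61 for HDAC11 and -0.76 for the erythroid mean. Over all samples HDAC11 changed by 1.21 log2 units per log2 unit of the erythroid mean. For each of the 28 genes against the mean of the others, this slope ran from 0.28 for SLC25A37 to 1.52 for KLF1. A larger swing than the list mean is therefore not particular to HDAC11.

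Marker lists were also set beside HDAC11 over animals, 1 sample each, in the 24 controls and in the 28 samples of Day 30. These are samples in which its correlations were already known, so the values carry no p. The mean of the erythroid list had a Pearson r of 0.76 and a Spearman rho of 0.64 in the controls. On Day 30 Pearson r was 0.78 and Spearman rho 0.74. Without the 2 animals farthest from the median of the list, r was 0.63 in the controls and 0.73 on Day 30. The other lists were B cell, T cell, cytotoxic lymphocyte, neutrophil, monocyte, plasmacytoid dendritic, eosinophil and basophil, platelet and cycling cell genes. Their 18 values of r ran from -0.46 for B cell genes in the controls to 0.37 for monocyte genes in the controls, and the first was -0.13 without the 2 farthest animals.

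The level of HDAC11 relative to erythroid genes in an animal was also compared over time, as a description. The log2 difference between HDAC11 and the erythroid mean in a control was set against the same difference in the same animal on Day 30. Pearson r was 0.89 and Spearman rho 0.86 (24 animals). Without the 2 animals farthest from the median, r was 0.82. On Day 15 Pearson r was 0.82 and Spearman rho 0.76, and r was 0.81 without the 2 farthest animals. On Day 60, in 21 animals, they were 0.76 and 0.66, and r was 0.62 without the 2 farthest. All 6 relations, counting those of the level below, were chosen after the data had been seen, so they carry no p.

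The level of HDAC11 itself was compared in the same way. Its r between control and later draw was 0.30 on Day 15, 0.54 on Day 30 and 0.64 on Day 60. The matching rho was 0.27, 0.56 and 0.79. Without the 2 farthest animals r was 0.05, 0.72 and 0.60. Over all draws the mean difference of an animal ran from -2.39 in B2504 to 0.40 in B1003, with an SD of 0.66 between the 28 animals and a median SD of 0.46 within an animal. For each erythroid gene set against the mean of the other 27, the r between control and Day 30 ran from 0.23 to 0.90 with a median of 0.57, and 1 of 28 genes was above HDAC11. On Day 15, 11 of 28 were above it, and on Day 60, 7 were.

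**Figure D4:**
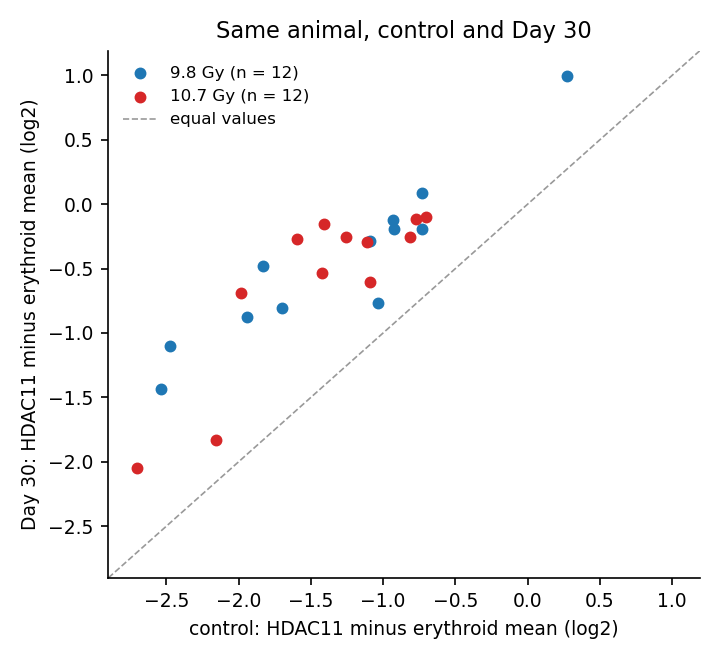
HDAC11 minus the mean of 28 erythroid genes (log2) in the control (horizontal) and on Day 30 (vertical) for 24 animals, 1 point an animal, with a dashed line of equal values. The points rise together (r = 0.89) and lie above the line, since the difference was larger on Day 30 in all 24 animals.

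Among its relatives HDAC11 was a gene of middle level before irradiation. Per kilobase of exon, its control level was 7.47 ± 5.29 CPM (SD, n = 24), the 12th of 18 deacetylase genes, between SIRT6 at 7.73 ± 1.94 and HDAC6 at 6.26 ± 1.27, and its spread covers both. HDAC1 led at 55.3 ± 8.35 CPM per kilobase. Over Day 3 to Day 21 HDAC11 stood at 31.4 ± 17.1 CPM per kilobase (n = 28), the third of the 18, behind HDAC1 at 47.7 and HDAC5 at 35.4.

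The other deacetylase genes asked whether the family moved with HDAC11, and they were tested on counts summed per animal against the own control, with edgeR and the animal as a block. The 3 periods share their controls. Over Day 3 to Day 21 edgeR called 7.53% of all genes but none of the 40 listed ones, which were HDAC1 to HDAC10, SIRT1 to SIRT7, 20 subunits of deacetylase complexes, and SHMT2, IL10 and IFNAR1. Of these 40, 25 had an unadjusted p of at most 0.05, the same number had an adjusted p of at most 0.05, and those 25 had lower values at under 1.5-fold. Of all 13751 genes, 7596 had an unadjusted p of at most 0.05 in the same fit. DESeq2 and limma also called 0. HDAC9, a class IIa enzyme, had the lowest value of the family at -0.51 (SE 0.11), and HDAC2 had the highest at 0.00 (SE 0.06). The median was -0.17 for HDAC1 to HDAC10 and -0.19 for the sirtuins, against -0.02 for all genes.

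**Figure D5:**
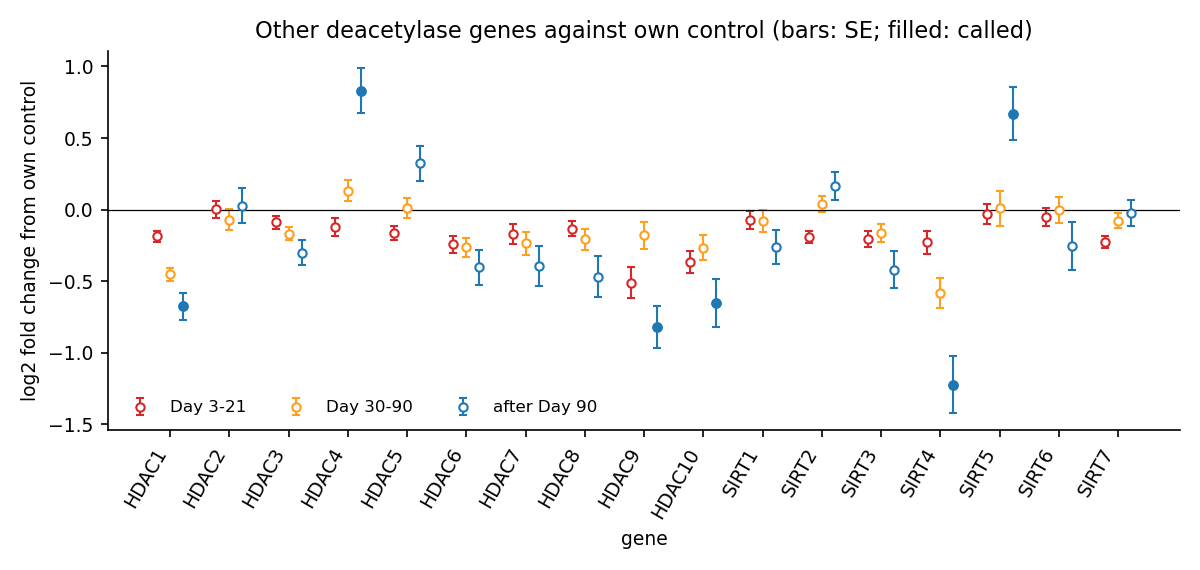
Log2 fold change from own control for HDAC1 to HDAC10 and SIRT1 to SIRT7 over Day 3-21 (red), Day 30-90 (orange) and after Day 90 (blue), with bars for the SE, filled where the gene was called. No gene is filled in the first 2 periods, and HDAC1, HDAC4, HDAC9, HDAC10, SIRT4 and SIRT5 are filled after Day 90.

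Over Day 30 to Day 90, 5.75% of all genes were called and 1 of the 40 was, the remodeller gene CHD4 of the NuRD complex, which fell by 0.61 (SE 0.10, edgeR adjusted p = 1.24e-05). That call was lost with TMM scaling or DESeq2, at -0.58 and -0.57. After Day 90, in 14 animals, 13 of the 40 were called, which is the same 32.5% as over all genes. HDAC1, a core enzyme of several repressor complexes, fell by 0.68 (SE 0.09, edgeR adjusted p = 2.29e-05), HDAC9 fell by 0.82 and HDAC10 fell by 0.65. HDAC4, another class IIa enzyme, rose by 0.83 (SE 0.16, edgeR adjusted p = 0.000302). Among the sirtuins, the mitochondrial SIRT4 fell by 1.22 and SIRT5 rose by 0.67. SIRT4 stood at only 2.01 ± 0.86 CPM after Day 90 (SD, 16 animals). SIRT5 was at 23.4 ± 31.2 CPM in the same animals, an SD above its mean, against 8.41 ± 2.78 CPM in the 24 controls. Of the complex subunits CHD3, CHD4, RBBP7 and SIN3B fell by 0.99, 0.66, 0.83 and 0.84, and SAP30 and TBL1XR1 rose by 0.83 and 0.66.

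SHMT2 had lower values than control in all 3 periods. Its change was -0.25 (SE 0.05) over Day 3 to Day 21 and -0.40 (SE 0.06) over Day 30 to Day 90, both under 1.5-fold, and it fell by 0.85 after Day 90 (SE 0.12, edgeR adjusted p = 1.95e-05). IL10 was at 0.27 (SE 0.14), 0.52 (SE 0.16) and 0.29 (SE 0.25), and IFNAR1 was at 0.05 (SE 0.05), 0.10 (SE 0.06) and 0.49 (SE 0.14), with no call by edgeR in any period. DESeq2 called IFNAR1 after Day 90, at 0.61 (DESeq2 adjusted p = 0.000279), whereas edgeR with TMM scaling and limma did not. After Day 90 the median of all genes was -0.13 with upper quartile scaling, -0.03 with TMM and -0.01 with DESeq2. The share of calls that were higher was 42.96%, 54.6% and 57.7% in the same order. HDAC1, HDAC10 and CHD4 kept their direction but were under 1.5-fold with TMM and DESeq2.

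The other deacetylase genes had an r with HDAC11 near 0 or below. Over all samples r with HDAC11 ran from -0.24 for HDAC2 to -0.01 for HDAC1 among the zinc-dependent genes, from -0.19 to 0.05 among the sirtuins, and was -0.05 for SHMT2, -0.01 for IL10 and -0.14 for IFNAR1. Of the nearest tested genes, the fibulin gene FBLN2, 43807 bases after HDAC11, had an r of 0.49, the 557th highest of all genes. NUP210 and IQSEC1 before HDAC11 had -0.05 and -0.25, and CHCHD4 after it had -0.11. None of these 4 neighbours was called over Day 3 to Day 21, when FBLN2 was at -0.42 (SE 0.15), NUP210 at -0.32 (SE 0.07), IQSEC1 at -0.45 (SE 0.06) and CHCHD4 at 0.01 (SE 0.07). After Day 90 FBLN2 fell by 1.37 and NUP210 fell by 0.96.

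The level of HDAC11 over Day 3 to Day 21 was set against the day of the last draw within each dose. This level was the mean log2 CPM of the draws present. At 10.7 Gy only 12 of 16 animals had draws on Day 3 and Day 15, so the means there rest on different days. At 9.8 Gy (12 animals) Pearson r was -0.11 (permutation p = 0.739, adjusted p = 0.962 over 2 relations) and Spearman rho -0.14 (permutation p = 0.659, adjusted p = 0.854). At 10.7 Gy (16 animals) they were 0.01 (permutation p = 0.962, adjusted p = 0.962) and 0.05 (permutation p = 0.854, adjusted p = 0.854). Without the 2 animals farthest from the median day, r was -0.10 and -0.23. No relation was detectable with this number of animals.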

How the data were processed

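Whole blood RNA was depleted of ribosomal RNA and sequenced as stranded paired reads. Per the submitters' processing notes, the authors trimmed reads with cutadapt 2.10, aligned them with STAR 2.7.6a to Mmul_10 and counted reads per gene with Subread 2.0.1, and they deposited these counts without normalization. The deposited log2 values were made by the authors with conditional quantile normalization, and they hold 16730 genes.

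Samples were grouped by GEO's labels for animal, day, dose and sex. Genes were kept where 80% or more of the samples held 3 or more counts. They were scaled by upper quartile and given as log2 CPM with a prior count of 2. Steps between days, dose, sex and related genes were tested with edgeR 4.0.16 on counts, with the animal as a block where animals repeat. The pairing comes from the labels' animal names, and deviations of the control and Day 3 sample of an animal correlated at 0.34 to 0.69 in 24 animals (median 0.55). The relation with the day of the last draw used permutation tests with 100000 resamples. SEs were taken from the fold change and the F statistic. The tests were tested on simulated data. P-values of the fits weigh a change or difference against its SE, which rests on the spread between these animals and on their number. Alternatives were TMM, DESeq2 1.42.0, limma 3.58.1 on the deposited log2 values, no filter, no block, library number and leaving out animals. Named genes were HDAC11, the other deacetylases, SHMT2, IL10, IFNAR1, the nearest tested genes, the highest and lowest r, and subunits that were called. The gene, its relatives and the marker lists were chosen with earlier results of these data known. No column belonged to another series, and no 2 samples were identical. The result for 1 gene named by this rule is not reported here.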

Additional observations from a re-analysis of the deposited data

How the results depend on the processing

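Of 952 values under alternative settings, 854 kept their direction and side of the threshold or stayed within the spread. Many of them left out 1 animal, 24 for each change from control. Those counted as kept when they moved by less than the SD over animals, and all did. On late days most animals left out had no draw, so the total does not measure how firm the results are. Without the replicate block (the animal), both called steps from Day 30 on did not pass with edgeR. They were -0.26 (edgeR adjusted p = 0.774) for Day 40 against Day 30 and 0.86 (0.126) for Day 210 against Day 180. Day 6 against Day 3 was then 0.59, Day 21 against Day 15 was -0.61, and Day 270 against Day 240 turned to 0.17. With limma on the deposited values, Day 6 against Day 3 was 0.58, under 1.5-fold, Day 210 against Day 180 was 0.89 (adjusted p = 0.102), and the dose difference in change was -0.012. Leaving out 1 animal gave 0.65 to 1.04 for Day 210 against Day 180 and -0.34 to 0.18 for Day 180 against Day 150, which turned to 0.13 without B1503 and 0.18 without B1505. Day 150 against Day 120 was 0.044 within 1 range of library numbers. For Day 30 to Day 90, 0 of the 40 listed genes were called with DESeq2 or TMM and 2 with limma or without the block. The median r of the 12 highest genes was 0.91 among low library numbers, 0.93 among high ones and 0.86 where there was none, and that of the erythroid list 0.76, 0.78 and 0.71. Without scaling, r on Day 30 turned to -0.0068 for neutrophil, -0.23 for monocyte, -0.063 for eosinophil and basophil and -0.20 for cycling cell genes. SIRT5 after Day 90 was under 1.5-fold with limma (0.58). The cause of these changes was not tested.

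Counts of genes called moved by over 1.5 times for Day 90 against Day 60 (44, 182 with DESeq2, 15 with limma, 0 without the block), Day 210 against Day 180 (1100, 86 with limma, 359 without the block) and Day 240 against Day 210 (1762, 617 and 837). Leaving out 1 animal gave 1636 (without B1502), 259, 166 and 472 (without B1003, B1004 and B1503) and under 166 (without B2502) for the former. For the latter it gave 302 (without B1505) to 2872 (without B2502), with 442, 780 and 936 without B1003, B1004 and B1503. Within 1 range of library numbers, where fewer animals remain, the counts were 296 of Day 21 against Day 15 (143 in all), 89 of Day 30 against Day 21 (975), 30 of Day 60 against Day 40 (366) and 0 of Day 240 against Day 210. They also moved for Day 270 against Day 240 (0, 35 with DESeq2, 37 without the filter, 44 without B1003), Day 30 by dose (0, 1 without the filter), the controls by sex (9, 32 with limma, 31 without the filter) and Day 30 by sex (72, 281 with DESeq2). From Day 180 on, 6 animals limit every value, and the lowest count of reads in a sample, 2840219, was after Day 90.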

Other observations

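Of the 4 animals without a control, all given 10.7 Gy, the 3 drawn on Day 60 had less HDAC11 there than on Day 30. Animal B2506 went from 266 CPM on Day 30 to 55.7 CPM on Day 60 and 37.5 CPM on Day 90. Animal B2006 went from 170.2 CPM to 27.2 CPM and B2507 from 35.4 CPM to 17.9 CPM between Day 30 and Day 60. Animal B2008 was last drawn on Day 30, at 139 CPM. Their levels on Day 6 ran from 44.2 CPM in B2507 to 259 CPM in B2008.

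At 8 unscheduled last draws HDAC11 stood at 8.70 to 41.9 CPM, and the ratio to the preceding scheduled draw ran from 0.182 in B2501 (Day 77 against Day 60) to 5.78 in B1001 (Day 127 against Day 120). It was above 1 in 3 of the 8 animals. Each is a single draw with no replicate.

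In the 24 animals with a control, 57.4% of the variance of HDAC11 around the day means from control to Day 30 lay between animals. The median over all 13751 genes was 38.05% and that over the erythroid list was 62.6%. For the difference between HDAC11 and the erythroid mean it was 84.7%. That share was not computed for such differences of the erythroid genes, so it has no like value beside it.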
